A study of Homo sapiens with 20 samples.

Results

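The transcripts of MDM2 and MDM4 were followed one by one in RNA-seq of NGP, a human neuroblastoma cell line. All transcripts in the deposited values whose Ensembl identifier, without its version, belongs to MDM2 (ENSG00000135679) or MDM4 (ENSG00000198625) in GENCODE release 44 were taken. These were 33 transcripts of MDM2 and 16 of MDM4, 49 of 198968 in all and 2 of 34439 protein-coding and lncRNA genes. The dataset holds 10 samples of NGP cells treated with nutlin-3, as a racemic mixture at 8 µM, and 10 samples of the same line treated with ethanol as vehicle. All samples thus share one line, which is known to carry extra copies of MDM2 and unmutated p53, and neither the labels nor the methods give the time of treatment. The methods call the samples of a condition biological replicates grown in culture flasks, and the p-values measure the spread between these samples. In bulk RNA, fewer cells with a transcript and less of it per cell cannot be told apart.

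MDM2 is the E3 ubiquitin ligase that binds p53, blocks its activity as a transcription factor and marks it for degradation. MDM4, also called MDMX, is its relative without ligase activity of its own, which binds p53 in the same way and forms heterodimers with MDM2. MDM2 is itself a target gene of p53, and its p53-responsive promoter (P2) lies in the first intron, downstream of the constitutive promoter (P1). Nutlin-3 sits in the p53-binding pocket of MDM2, and the comparison asks what the levels and the make-up of the transcripts were after this block. Splicing is a second layer of control, since MDM4 without exon 6 codes for a short product and several MDM2 splice forms lack parts of the p53-binding region.

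The 2 promoters of MDM2 are shown because its transcripts are sorted below by where they start. Both are on the forward strand of chromosome 12 in GRCh38.p14 and were taken from RefSeq promoter windows of 300 bases, cut before the first annotated base of the exon they precede. P1 is the stretch chr12:68807922-68808176 and P2 is chr12:68808767-68809001. Capitals mark stretches of 20 bases that match the p53 consensus, a pair of adjacent decamers that reads the same on both strands, with at most 3 mismatches.
MDM2 P1: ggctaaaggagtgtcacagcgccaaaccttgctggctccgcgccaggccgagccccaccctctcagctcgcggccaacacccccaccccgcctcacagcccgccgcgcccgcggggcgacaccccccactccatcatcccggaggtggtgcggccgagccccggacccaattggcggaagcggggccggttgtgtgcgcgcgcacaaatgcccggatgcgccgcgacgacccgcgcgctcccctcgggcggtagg
MDM2 P2: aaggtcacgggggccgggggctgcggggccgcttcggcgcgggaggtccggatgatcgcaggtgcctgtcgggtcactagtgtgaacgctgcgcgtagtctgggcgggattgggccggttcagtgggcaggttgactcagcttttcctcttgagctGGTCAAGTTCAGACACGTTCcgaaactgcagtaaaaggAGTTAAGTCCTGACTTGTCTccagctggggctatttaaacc
P2 held 2 such stretches, at chr12:68808923-68808942 with 2 mismatches and at chr12:68808961-68808980 with 3 mismatches. P1 held none, and its best match had 5 mismatches. The single MDM4 window (chr1:204516156-204516455), which ends within exon 1, also had a best match of 5 mismatches. The rest of MDM4, its first intron included, was not searched. Of 35116 promoter windows of the same length, 5.20% held a match with at most 3 mismatches, 0.649% one with at most 2, and 0.202% held 2 matches that did not overlap. P1 was the richer in G and C, at 74.1% against 60.0% for P2.

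A pair of exons that some transcripts leave out is shown with 15 bases of each neighbouring exon, the exon itself in capitals. Exons are counted along MDM2-202 and MDM4-203, the canonical transcripts with 11 exons each. Exon 3 of MDM2 (chr12:68813554-68813628, forward strand, GRCh38) is coding and lies in the region for the p53-binding domain. Its 75 bases are a multiple of 3, so that leaving it out keeps the reading frame. Exon 6 of MDM4 (chr1:204537430-204537497, forward strand) is coding too, but its 68 bases are not a multiple of 3.
MDM2 exon 3: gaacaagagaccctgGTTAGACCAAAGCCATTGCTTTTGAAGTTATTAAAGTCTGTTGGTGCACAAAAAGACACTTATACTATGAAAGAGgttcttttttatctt
MDM2 without exon 3: gaacaagagaccctggttcttttttatctt
MDM4 exon 6: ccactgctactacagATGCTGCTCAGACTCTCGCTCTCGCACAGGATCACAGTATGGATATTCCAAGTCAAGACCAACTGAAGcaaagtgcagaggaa
MDM4 without exon 6: ccactgctactacagcaaagtgcagaggaa
Reads across the second line of each pair come from transcripts that left the exon out. The authors' kallisto runs shared out by likelihood the reads that fit more than 1 transcript. This includes reads across the MDM4 junction, which several transcripts hold.

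For each transcript the authors gave an estimated count of read pairs, with no normalization, and a TPM, which is that count scaled by effective length and library size. Depth, as the sum of estimated counts over all transcripts, ranged from 14455477 to 19532971 for vehicle and from 15078052 to 17442896 for nutlin-3. Of the adrenergic neuroblastoma markers, the 5 given here (HAND2, GATA3, ISL1, DBH and TH) were at 48.3 TPM or more in every sample, with a summed level of 1187 to 1526 TPM for vehicle and 1227 to 1712 TPM for nutlin-3. Each of the 5 overlapped between conditions. The 4 markers of other lineages (PRRX1, PTPRC, PECAM1 and EPCAM) never exceeded 2.48 TPM, with sums of 0.451 to 1.58 TPM for vehicle and 1.30 to 5.08 TPM for nutlin-3.

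In reads, MDM2 rose 22.7-fold after nutlin-3 and MDM4 1.25-fold. The level of MDM2, summed over its transcripts, was 131 TPM in the lowest vehicle sample, 220 TPM in the median and 309 TPM in the highest. After nutlin-3 the lowest, median and highest samples were at 2766, 3590 and 3987 TPM. Every nutlin-3 sample was thus far above every vehicle sample, and by mean TPM MDM2 moved from rank 536 to rank 20 of 27697 genes. In cpm, read counts scaled to a common library size after TMM normalization, the levels were 199 to 290 for vehicle and 4797 to 6005 for nutlin-3. The log2 fold change was 4.51 (SE 0.07, n = 10 per condition), with an adjusted p of 5.61e-29 in the quasi-likelihood test of edgeR. Of the 27697 genes tested, 58.8% passed 5% FDR in either direction, 32.3% upwards and 26.5% downwards, and 171 genes had a larger absolute change than MDM2. By transcripts of the type protein_coding alone the log2 fold change of MDM2 was larger, at 5.20, and with an offset for effective length it was 4.01.

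MDM4 was at 14.9 TPM in the lowest vehicle sample, 21.4 in the median and 26.3 in the highest, and at 34.4, 40.2 and 43.8 TPM after nutlin-3. Neither the TPM nor the normalized counts of the conditions overlapped, the latter being 126 to 169 cpm for vehicle and 180 to 202 cpm for nutlin-3. Non-overlapping TPM with nutlin-3 higher was found for 9.36% of all genes, and with nutlin-3 lower for 12.7%. In counts the log2 fold change of MDM4 was 0.33 (SE 0.04, n = 10 per condition, edgeR adjusted p = 3.68e-08), beside a median of 0.19 over all genes tested. On the scale of log2(TPM + 1) it was 0.86 by limma, beside a median over all genes of 0.04, and with the effective length offset it was 0.88. The size of the MDM4 change therefore depended on whether transcript length was taken into account, while its direction and its call did not.

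**Figure D1:**
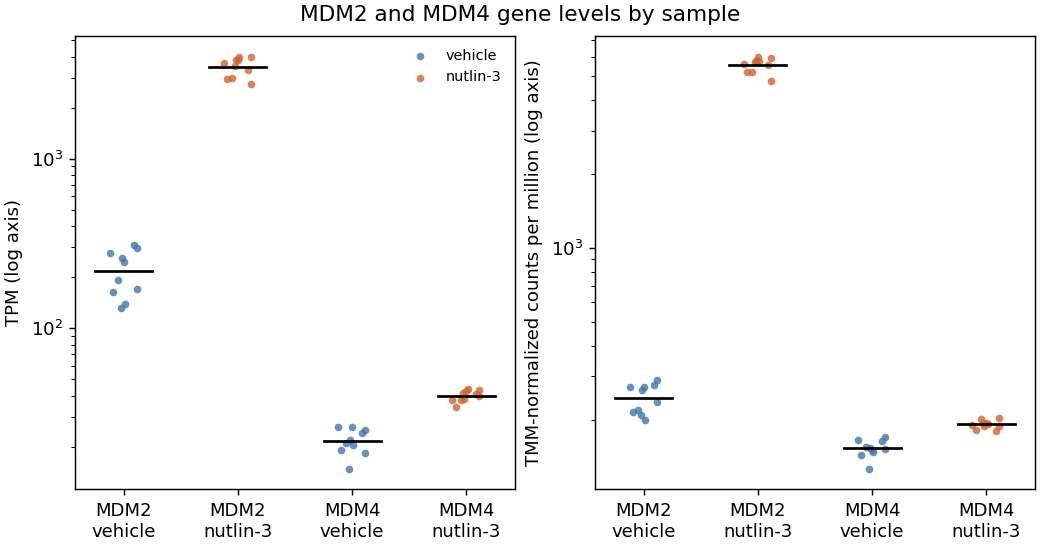
Gene levels of MDM2 and MDM4 in each sample, as TPM (left) and as TMM-normalized cpm (right), on log axes. Points are samples, blue for vehicle and orange for nutlin-3, and lines are means of 10 samples; the MDM2 points of the conditions lie apart (131 to 309 against 2766 to 3987 TPM), whereas those of MDM4 are close but do not overlap (14.9 to 26.3 against 34.4 to 43.8 TPM).

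The balance of both genes moved with MDM2. The ratio of MDM2 to MDM4 TPM was 6.83 to 12.8 in the vehicle samples, with a median of 9.32, and 64.1 to 99.9 after nutlin-3, with a median of 88.2. On the log2 scale the ratio was 3.29 ± 0.27 (SD, n = 10) for vehicle and 6.44 ± 0.19 (SD, n = 10) for nutlin-3. The difference was 3.16 (two-sided permutation test, p = 3e-05). In estimated counts the log2 ratio was 0.68 for vehicle and 4.86 for nutlin-3, a difference of 4.18 (permutation p = 3e-05). The canonical MDM2-202 and MDM4-203 had medians of 8.65 and 14.9 TPM for vehicle, and of 236 and 17.9 TPM for nutlin-3. The size of the ratio therefore depended on the scale and the transcripts used, while the direction of its change did not.

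Of the 33 MDM2 transcripts, 25 had at least 1 count in each condition and were tested. The levels of 21 rose at 5% FDR, none fell and 4 were not called, against 23.3% of the 119877 transcripts tested that were called, 12.7% upwards and 10.7% downwards. None fell at an unadjusted p under 0.05 either, with edgeR or with DESeq2. The 4 not called were MDM2-207, MDM2-208, MDM2-209 and MDM2-230. For 17 of the 33 the TPM of every nutlin-3 sample was above that of every vehicle sample, which held for 3.61% of all transcripts tested, beside 4.84% with nutlin-3 lower. The median log2 fold change over the 25 was 3.54, beside 0.17 over all transcripts tested. The transcripts tested passed a filter on counts in both conditions, so that the other 8 are described by their counts alone. Of these 8, all were at 0 counts in every vehicle sample, 3 were also at 0 in every nutlin-3 sample, and MDM2-210 had the highest single value, 61.9 counts in a nutlin-3 sample. A total of 16 MDM2 transcripts held a mean share of at least 1% of MDM2 TPM in a condition and are described below. The other 17 held at most 0.847% each, and 8 of the 9 that were tested rose, by 2.86 to 7.97 on the log2 scale.

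Transcripts annotated to start in exon 1, here taken as P1 transcripts, were represented by 5 of these 16. Reads that do not reach the first exon do not show where a transcript started, so counts of these transcripts rest in part on kallisto's assignment. MDM2-202, the canonical mRNA for the full-length ligase, was at 6.15 TPM in the lowest vehicle sample, 8.65 in the median and 9.59 in the highest, and at 208, 236 and 288 TPM after nutlin-3. Its log2 fold change was 4.90 (SE 0.06, edgeR adjusted p = 6.12e-23). It is by far the longest member, with a deposited length of 12633 bases, and held 40.9% of the MDM2 counts but 4.03% of the TPM for vehicle, and 52.8% of the counts and 6.99% of the TPM for nutlin-3.
The other P1 transcripts were less raised. MDM2-204, which lacks exon 4 and is of the type nonsense_mediated_decay, went from a median of 24.1 TPM (16.1 to 37.4) to 123 TPM (110 to 145), a log2 fold change of 2.38 (SE 0.12). MDM2-218, a retained-intron form of exons 1 to 4, went from 26.2 TPM (17.5 to 39.8) to 128 TPM (86.3 to 162), a log2 fold change of 2.20 (SE 0.14). MDM2-213, again of the type nonsense_mediated_decay, rose more, from 14.005 TPM (9.57 to 26.1) to 206 TPM (164 to 237), by 3.69 on the log2 scale (SE 0.15). MDM2-201, which lacks exons 6 and 7, was low in both conditions, with medians of 2.54 and 25.9 TPM. None of these overlapped between conditions.

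P2 transcripts, which start at an alternative first exon inside intron 1, were the most abundant by TPM after nutlin-3, but not by estimated counts. MDM2-224, the main one, was at 21.1 TPM in the lowest vehicle sample, 37.0 in the median and 47.8 in the highest. After nutlin-3 the same values were 1150, 1391 and 1479 TPM, the highest of any MDM2 transcript. Its log2 fold change was 5.27 (SE 0.13, edgeR adjusted p = 1.96e-18). MDM2-212 went from a median of 4.95 TPM (1.67 to 7.17) to 151 TPM (125 to 154), and MDM2-211 from 3.80 TPM (0 to 7.84) to 62.7 TPM (36.3 to 96.6). Their log2 fold changes were 4.94 (SE 0.16) and 4.21 (SE 0.47). The annotated MDM2-224 and MDM2-212 are 2523 and 1748 bases long, but the transcripts the authors quantified under these names had 845 and 754 bases. Likewise MDM2-202 is annotated with 7490 bases, so the exon structures given here may differ from those that were quantified for these 3. Lengths were the same within 1 base for 28 of the 33 MDM2 and 15 of the 16 MDM4 transcripts.

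Summed by start, P1 transcripts held 58.8 to 113 TPM for vehicle (median 81.7) and 618 to 827 TPM for nutlin-3 (median 732). P2 transcripts held 29.7 to 55.9 TPM (median 46.9) and 1312 to 1715 TPM (median 1610). By TPM, P1 was thus above P2 in every vehicle sample and below it in every nutlin-3 sample. By estimated counts P1 was above P2 in every sample of both conditions. The counts were 1842 to 3071 against 278 to 586 for vehicle, and 45650 to 61181 against 12436 to 17272 for nutlin-3. Of the mean P1 counts, MDM2-202 held 1518 of 2613 for vehicle and 45889 of 54599 for nutlin-3. It was quantified with 12633 bases, but MDM2-224, MDM2-211 and MDM2-212 with only 845, 842 and 754. Where reads from beyond these short P2 forms were assigned was not tested, so the counts do not settle which promoter gave more mRNA. The mean of the P2 sum was 34.9 times higher after nutlin-3 by TPM and 36.5 times higher by counts, while that of the P1 sum was 9.01 times higher by TPM and 20.9 times higher by counts. The ratio of P2 to P1 in TPM was 0.435 to 0.697 for vehicle and 2.03 to 2.36 for nutlin-3, and leaving MDM2-202 out of P1 gave 0.473 to 0.810 and 3.02 to 3.61.
As a share of all MDM2 TPM, P2 transcripts took 20.99% ± 2.96 (SD, n = 10) for vehicle and 44.8% ± 2.38 for nutlin-3, a difference of 23.8 percentage points (two-sided permutation test, p = 3e-05). In estimated counts, where long transcripts weigh more, the P2 shares were 11.7% and 18.4%, a difference of 6.74 points (permutation p = 3e-05), beside P1 shares of 70.3% and 62.8%. With only the transcripts whose deposited and annotated lengths were the same, MDM2-211 was the only P2 transcript with counts, and the difference was 1.13 points (permutation p = 0.16), so that the P2 share rests on MDM2-224 and MDM2-212. The 22 transcripts that start further downstream do not tell the promoters apart. They held 40.5% of the TPM for vehicle and 34.4% for nutlin-3.

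**Figure D2:**
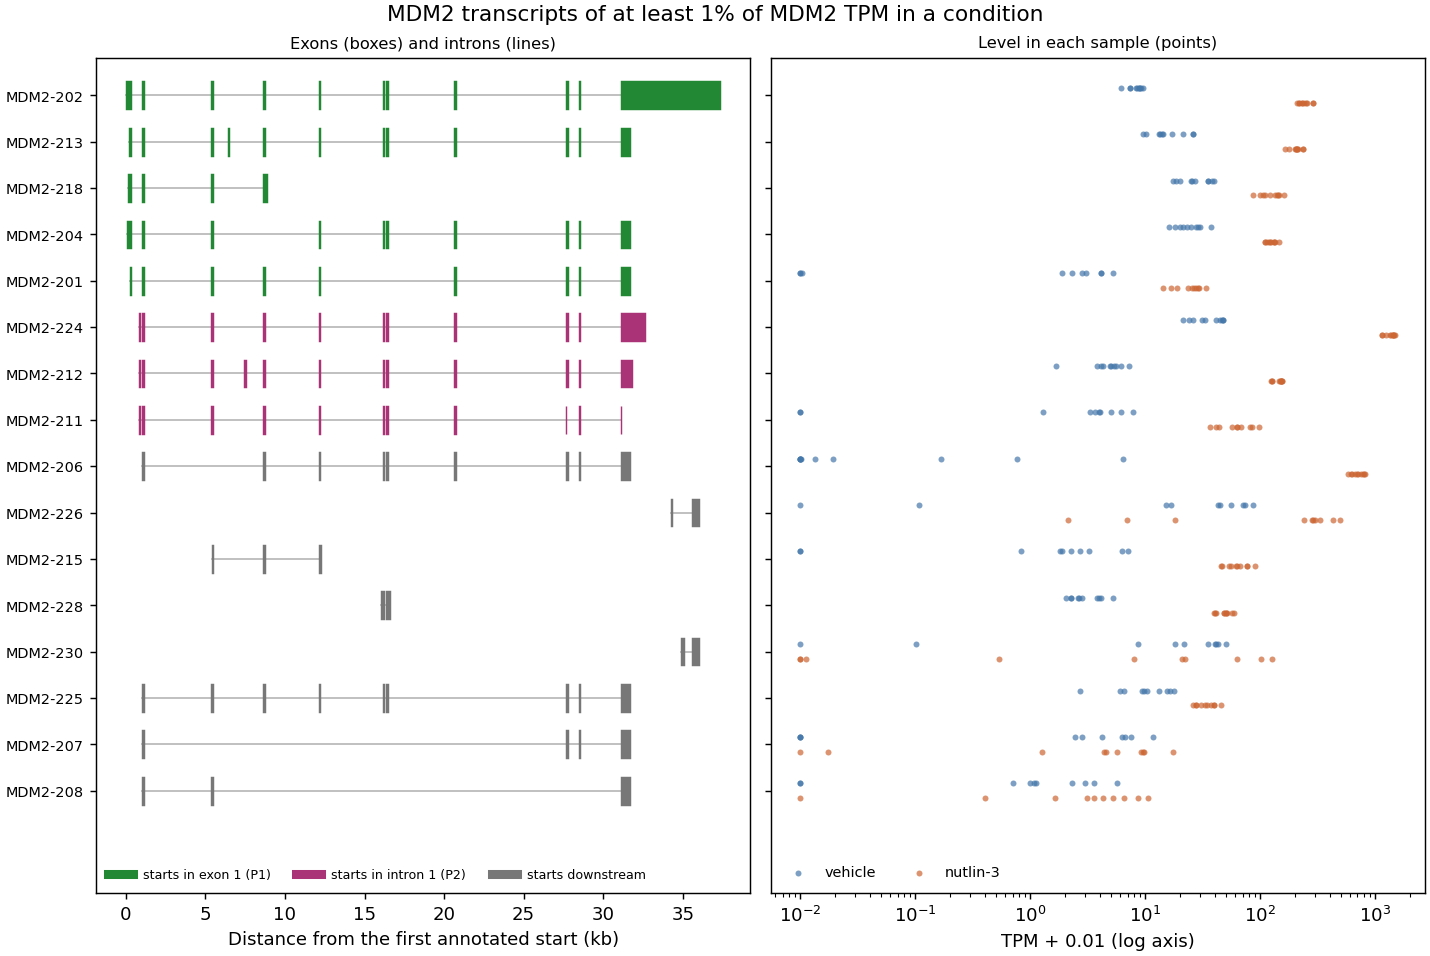
The 16 MDM2 transcripts with at least 1% of MDM2 TPM in a condition. Left, annotated exons (boxes) and introns (lines) by distance in kb from the first annotated start, coloured by where the transcript starts; right, TPM + 0.01 in each of 20 samples on a log axis. The nutlin-3 points (orange) of MDM2-224 (1150 to 1479 TPM) and MDM2-206 (582 to 813 TPM) lie furthest to the right.

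The largest change among the 16 by the edgeR estimate was that of MDM2-206, an annotated coding sequence that starts in exon 2, goes from exon 2 to exon 4 and so lacks exon 3. In the vehicle samples it was at most 6.40 TPM, in replicate 10, at most 0.757 TPM in the other 9 and at a median of 0.00179 TPM. After nutlin-3 it was at 582 TPM in the lowest sample, 701 in the median and 813 in the highest. It went from 14.2 to 13281 estimated counts in the mean, and from 0.521% to 20.3% of MDM2 TPM. Its log2 fold change was 9.83 (SE 0.76, edgeR adjusted p = 7.31e-10), with the vehicle level too close to 0 to fix its size. DESeq2 gave 4.42 (adjusted p = 0.0377), and edgeR with the replicate number as a block gave 11.5 (adjusted p = 8.53e-06). By TPM, MDM2-206 was the second most abundant MDM2 transcript after nutlin-3, and no nutlin-3 sample came near the vehicle range. These are levels that kallisto assigned to an entry of 1401 bases, which shares exons 4 to 11 with other MDM2 transcripts. Reads across the junction of exons 2 and 4 were not counted, so how much MDM2 RNA lacked exon 3 was not measured directly.

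Other transcripts that start downstream moved in different measure. MDM2-225, of the type nonsense_mediated_decay and without exon 8, went from a median of 10.03 TPM (2.72 to 17.6) to 33.5 TPM (25.9 to 45.5), a log2 fold change of 1.73 (SE 0.22). The retained-intron forms MDM2-215 and MDM2-228 went from medians of 2.06 and 2.72 TPM to 62.2 and 49.2 TPM. MDM2-207 and MDM2-208, which lack most exons between the first and last coding ones, stayed at low and overlapping values, 0 to 11.7 TPM and 0 to 5.61 TPM for vehicle, and up to 17.4 TPM and 10.6 TPM for nutlin-3. Their adjusted p-values were 0.686 and 0.239 in edgeR.
MDM2-226 and MDM2-230 lie inside the last exon, in the 3′ UTR, and varied widely within a condition. MDM2-226 was at 0 to 86.7 TPM for vehicle (median 43.8) and at 2.10 to 495 TPM for nutlin-3 (median 283), with replicates 3, 4 and 8 at 17.96, 2.10 and 6.97 TPM and the other 7 at 239 TPM or more. Its level lost its call with the replicate number as a block (adjusted p = 0.338 in edgeR) and in the 16 samples that share one (0.0904). MDM2-230 was at 0 to 49.9 TPM and 0 to 126 TPM. Over this exon runs CPM, the carboxypeptidase M gene, on the opposite strand (chr12:68842197-68971570, 3348 bases shared). CPM rose from between 21.8 and 27.3 TPM to between 47.7 and 82.9 TPM, a log2 fold change of 1.21 (SE 0.05, edgeR adjusted p = 8.38e-19). An antisense lncRNA there without a symbol (ENSG00000257181, chr12:68841288-68843237) rose from a median of 48.4 to 443 TPM. The libraries were stranded, but whether strand was used in the quantification is not given in the sources used here, so reads of MDM2 and of these genes may not be told apart in this stretch. Their part in the MDM2 values was not tested, but without MDM2-214, MDM2-226 and MDM2-230 the P2 share was 29.5% for vehicle and 48.5% for nutlin-3.

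The proportions of the transcripts within MDM2 were tested for each transcript against the summed counts of the gene, with the differential usage test of edgeR. Here 3.46% of 108800 transcripts passed 5% FDR, 2.38% upwards and 1.08% downwards. In MDM2, 1 of 25 took a larger proportion after nutlin-3 and 7 a smaller one. The one that gained was MDM2-206, by 5.30 on the log2 scale (adjusted p = 1.61e-35). Those that lost were MDM2-204 (-2.15), MDM2-218 (-2.32), MDM2-225 (-2.80), MDM2-226 (-1.92), MDM2-230 (-4.06), MDM2-207 (-3.91) and MDM2-208 (-3.25). MDM2-224 had a value of 0.75 with an adjusted p of 0.124, and passed in 2 of the 4 alternatives, with the filterByExpr filter (adjusted p = 0.0213) and with voom (0.0148). The canonical MDM2-202 had a value of 0.38 (adjusted p = 0.654) and passed upwards with voom (1.44, adjusted p = 1.08e-05). MDM2-213 had a value of -0.83 (adjusted p = 0.106) and passed downwards with the filterByExpr filter (adjusted p = 0.0146). Voom thus gave 3 larger and 4 smaller proportions. MDM2-207 and MDM2-208 lost their call both with the replicate number as a block (adjusted p = 0.42 and 0.465) and with voom (0.255 and 0.526). MDM2-226 lost its call in the same fits (0.0713 and 0.439), and MDM2-208 also in the 16 samples that share replicate numbers (0.222). MDM2-204, MDM2-218, MDM2-225, MDM2-230 and MDM2-206 passed in all 4 alternatives.

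By annotated type, coding transcripts held a larger part of MDM2 after nutlin-3. Transcripts of the type protein_coding held 30.1% ± 6.32 (SD, n = 10) of MDM2 TPM for vehicle, from 21.7% to 39.6%, and 74.2% ± 4.43 for nutlin-3, from 69.7% to 81.5%. By estimated counts they held the larger part on average already for vehicle, at 56.0% (49.0% to 62.6%), and 87.3% for nutlin-3. The difference was 44.1 points by TPM and 31.3 points by estimated counts (two-sided permutation tests, p = 3e-05 each). Most of the gain by TPM lay in MDM2-224, whose mean share went from 16.7% to 38.8%, and MDM2-206, from 0.521% to 20.3%. Without MDM2-214, MDM2-226 and MDM2-230 the coding shares by TPM were 41.9% for vehicle and 80.3% for nutlin-3. For 2 other types the sums did not overlap between conditions, while their shares were smaller after nutlin-3. The sum of nonsense_mediated_decay transcripts was 35.998 to 84.1 TPM for vehicle and 346 to 421 TPM for nutlin-3, and its share went from 26.0% to 11.4%. Retained-intron transcripts were at 21.5 to 46.4 TPM and 184 to 287 TPM, or 16.003% and 6.79%. Transcripts without a defined coding sequence, which are MDM2-214, MDM2-226 and MDM2-230, overlapped between conditions at 0.785 to 128 TPM and 2.75 to 503 TPM.

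**Figure D3:**
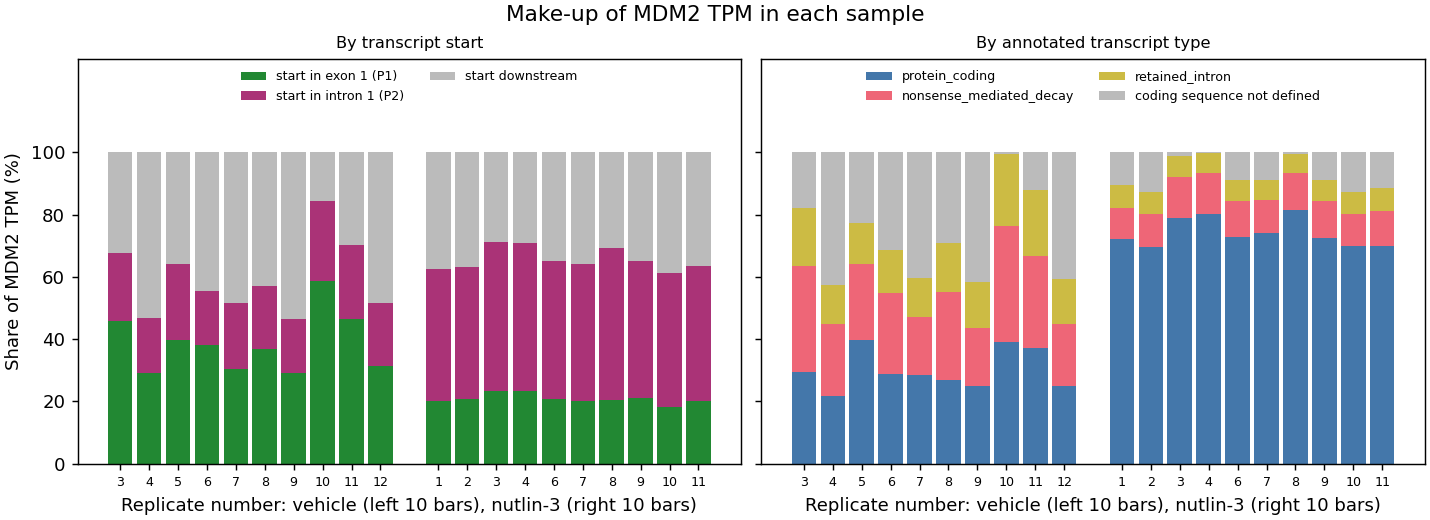
Make-up of MDM2 TPM in each sample, as shares in percent by where transcripts start (left) and by annotated type (right). Each bar is a sample, the left 10 vehicle and the right 10 nutlin-3, named by replicate number; the share of P2 starts is 17.2% to 25.6% for vehicle and 42.3% to 48.7% for nutlin-3, and that of protein_coding transcripts 21.7% to 39.6% and 69.7% to 81.5%.

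Of the 16 MDM4 transcripts, 12 were tested, of which 7 rose, none fell and 5 were not called, against the same 12.7% and 10.7% of all transcripts. Again none fell at an unadjusted p under 0.05 with edgeR or DESeq2. For 2 of the 16, MDM4-201 and MDM4-210, every nutlin-3 sample was above every vehicle sample. This held for 3.61% of all transcripts tested, beside 4.84% with nutlin-3 lower. MDM4-203, the canonical full-length mRNA, was at 10.5 TPM in the lowest vehicle sample, 14.9 in the median and 18.1 in the highest, and at 16.6, 17.9 and 20.1 TPM after nutlin-3. The ranges overlapped, and the log2 fold change was 0.36 (SE 0.06, edgeR adjusted p = 7.50e-05). It held 90.1% of the MDM4 counts for vehicle and 91.2% for nutlin-3, but 67.3% and 45.4% of the TPM.
The difference between these scales lay in short annotated forms. Transcripts of under 1000 bases held 1.68% of the MDM4 counts and 26.5% of its TPM for vehicle, and 5.52% and 52.8% for nutlin-3. MDM4-201, a coding fragment from exon 7 onwards, went from a median of 1.31 TPM (0.561 to 3.07) to 5.23 TPM (3.40 to 7.88), a log2 fold change of 1.85 (SE 0.29). MDM4-206 went from 0.910 TPM (0 to 5.08) to 4.47 TPM (1.73 to 8.10), and MDM4-210, a form of the first 5 exons, from 0.501 TPM (0.210 to 0.723) to 1.79 TPM (0.9999 to 3.44). MDM4-202 and MDM4-208 rose with overlapping ranges, by 1.26 (SE 0.32) and 0.73 (SE 0.24) on the log2 scale. The call of MDM4-208 was lost with the replicate number as a block (adjusted p = 0.186) and in the 16 samples that share one (0.0604). These levels rest on few reads, since the mean of each short transcript described here was 0.177 to 11.9 estimated counts in the vehicle samples and 2.19 to 44.4 counts in the nutlin-3 samples.

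In 3 MDM4 transcripts exon 5 is joined to exon 7, so that they lack exon 6 alone of this stretch, and 1 of the 3 rose. MDM4-211, a form of 884 bases without a defined coding sequence, was at 0 in 9 vehicle samples and at 0.613 TPM in replicate 3. After nutlin-3 it was at 0.109 TPM in the lowest sample, 4.42 in the median and 5.56 in the highest, from 1.22 to 66.4 counts. Its log2 fold change was 5.72 (SE 0.81, edgeR adjusted p = 8.08e-06), and its proportion of MDM4 counts rose by 5.37 on the log2 scale (usage test of edgeR, adjusted p = 0.000639), with an adjusted p of 0.0518 when the replicate number was a block. MDM4-205, the coding form known as MDM4-S, was at a median of 0.535 TPM for vehicle (up to 2.52) and near 0 for nutlin-3 (up to 1.12), and its level was not called (log2 fold change -1.91, SE 1.25, adjusted p = 0.323). Its proportion passed the usage test (-2.26, adjusted p = 0.0141) but not with voom (adjusted p = 0.129), with the replicate number as a block (-0.53, adjusted p = 1) or among the 16 samples that share replicate numbers (0.587). Of the 12 MDM4 transcripts tested for usage these 2 are all that passed with edgeR, beside 3.46% of the transcripts of all genes. With voom the canonical MDM4-203 passed downwards (-1.22, adjusted p = 0.000233). MDM4-213, the third with this junction, was at 0 in 9 vehicle and 7 nutlin-3 samples. MDM4-212, MDM4-214 and MDM4-216 lack exon 6 together with its neighbours and stayed at 0.504 TPM or less in every sample, with adjusted p-values of 0.0831 for MDM4-214 and 0.894 for MDM4-216 in edgeR and MDM4-212 not tested.
Among these 3 and the 2 transcripts with the whole of exon 6 between exons 5 and 7, MDM4-203 and MDM4-207, the share with exon 6 was 94.5% ± 5.71 (SD, n = 10) of TPM for vehicle and 81.7% ± 3.80 for nutlin-3, a difference of -12.8 points (two-sided permutation test, p = 1e-04). The ranges overlapped, from 85.6% to 100% and from 76.3% to 87.9%. In estimated counts the difference had the other sign, with shares of 95.1% and 97.5% (2.42 points, permutation p = 0.204). The direction for exon 6 therefore cannot be read from these values without choosing a scale. The share of MDM4 TPM on transcripts of the type protein_coding was 90.5% ± 1.49 for vehicle and 79.7% ± 4.58 for nutlin-3 (permutation p = 7e-05), and 99.3% and 97.4% in estimated counts (p = 3e-05).

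**Figure D4:**
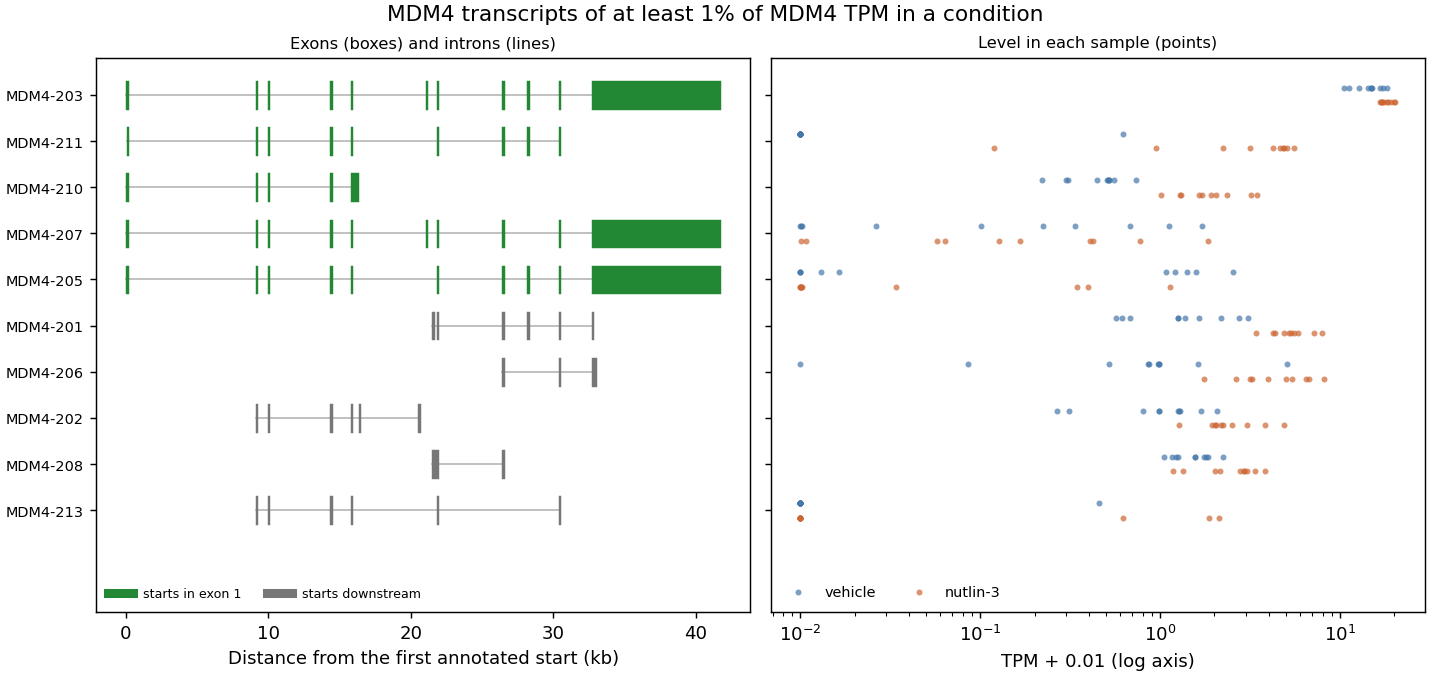
The 10 MDM4 transcripts with at least 1% of MDM4 TPM in a condition. Left, annotated exons (boxes) and introns (lines) by distance in kb from the first annotated start; right, TPM + 0.01 in each of 20 samples on a log axis. MDM4-203 overlaps between conditions (10.5 to 18.1 and 16.6 to 20.1 TPM), and MDM4-211 lies at 0 in 9 of 10 vehicle samples.

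Genes whose products act on MDM2 or MDM4 changed in both directions. Of 31 such genes, all tested, 7 rose, 21 fell and 3 were not called. Thus 90.3% were called against 58.8% of all genes, of which 32.3% rose and 26.5% fell. The median log2 fold change was -0.45, beside 0.19 over all genes. All genes tested had a median of 1.21 TPM for vehicle, while the listed genes other than USP2 had means of 5.77 TPM or more. The share called among genes of like level was not computed. Among the inhibitors of MDM2, CDKN2A, which codes for p14ARF from one of its reading frames, fell from between 161 and 198 TPM to between 99.2 and 124 TPM (log2 fold change -0.72, SE 0.06, edgeR adjusted p = 2.48e-12). RPL11 and RPL5, the ribosomal proteins that bind MDM2 as a pair, rose by 0.49 (SE 0.06) and 0.41 (SE 0.06), and RPL23 was not called (0.16, adjusted p = 0.145).
Of the ubiquitin enzymes, 5 of 6 fell. USP2, a deubiquitinase of MDM2, fell most, from between 0.677 and 1.96 TPM to between 0.153 and 0.608 TPM (log2 fold change -1.51, SE 0.15). UBE2D2 and UBE2D1, which hand ubiquitin to the ligase, had changes of -0.66 (SE 0.03) and -0.45 (SE 0.08). USP15, another deubiquitinase, was the one that rose (0.43, SE 0.05).
Among the kinases and the phosphatase, PPM1D, the phosphatase Wip1 that turns off damage signalling, rose from between 17.97 and 20.9 TPM to between 49.3 and 64.0 TPM, by 1.496 on the log2 scale (SE 0.04). CHEK2 fell by 1.10 (SE 0.12) and ABL1 fell by 0.58 (SE 0.03). ATM rose by 0.58 (SE 0.06) and AKT1 fell by 0.37 (SE 0.04).
Binding partners fell in 6 of 7 cases. DAXX, an adaptor that links MDM2 to a deubiquitinase, fell from between 38.3 and 51.7 TPM to between 16.96 and 24.4 TPM (-1.03, SE 0.04). MTBP and RASSF1 had changes of -0.94 (SE 0.05) and -0.65 (SE 0.05), and XIAP was not called (0.27, adjusted p = 0.139).
All 8 genes tied to splicing of MDM2 or MDM4 were called, 2 upwards and 6 downwards. ZMAT3, an RNA-binding protein encoded by a p53 target gene, rose from between 3.98 and 7.52 TPM to between 41.3 and 55.7 TPM (2.72, SE 0.07, edgeR adjusted p = 8.48e-24). RPL22L1, a paralog of RPL22 with a role in splicing, fell from between 484 and 905 TPM to between 189 and 329 TPM (-1.57, SE 0.12). SRSF2 fell by 1.15 (SE 0.03), and SRSF3, SRSF1, FUBP1 and PRMT5 had log2 fold changes of -0.84, -0.76, -0.68 and -0.44. RPL22 itself rose slightly, by 0.24 (SE 0.05).

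**Figure D5:**
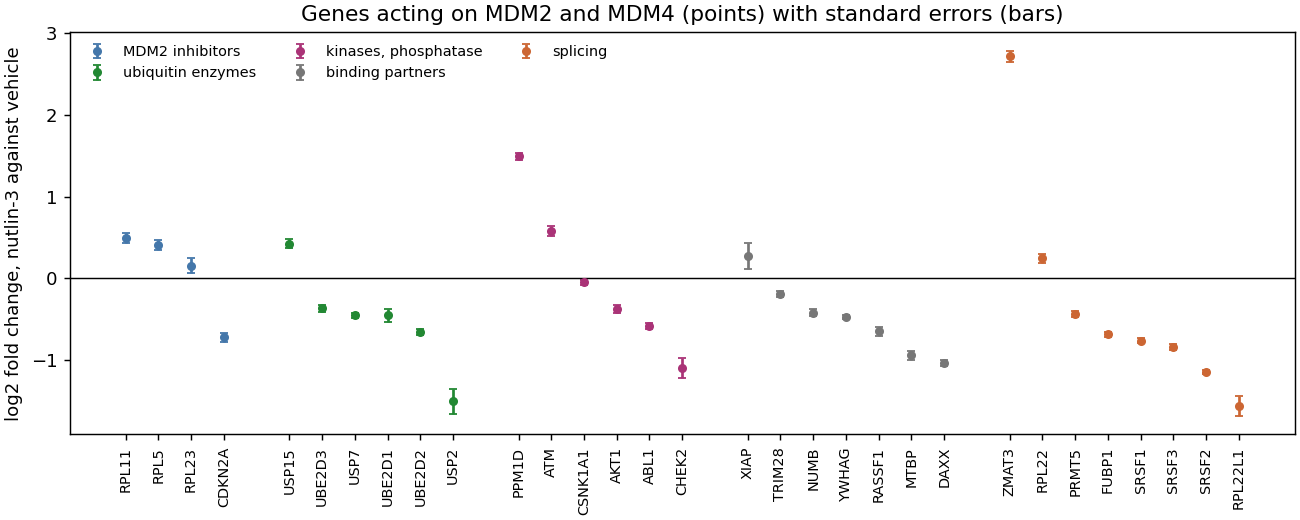
Log2 fold change of nutlin-3 against vehicle for 31 genes that act on MDM2 or MDM4, grouped by role. Points are estimates of edgeR from 10 samples per condition and bars are standard errors; ZMAT3 (2.72) and PPM1D (1.496) stand highest, RPL22L1 (-1.57) and USP2 (-1.51) lowest.

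The genes whose pattern over the 20 samples was most like that of MDM2 were sought among 15167 others with a mean of at least 1 cpm. Likeness was the root mean square difference in log2 cpm, each gene taken relative to its vehicle mean. The nearest to MDM2 was FDXR, the mitochondrial ferredoxin reductase, at 0.22, with a log2 fold change of 4.43 (SE 0.05). It was followed by SESN2, a sestrin that restrains mTORC1 signalling (0.29), TNFRSF10B, the death receptor DR5 (0.30), AGRN, which codes for the proteoglycan agrin (0.32), and PPL, which codes for periplakin (0.33). Their log2 fold changes were 4.34, 4.55, 4.32 and 4.23. Nearest to MDM4 were PAXBP1, USP34 and PLCB4, at 0.06, 0.07 and 0.07, with log2 fold changes of 0.35, 0.32 and 0.33. The measure follows the size of the difference between conditions first. Within the vehicle samples the correlation with MDM2 was -0.42 for FDXR, -0.27 for SESN2, -0.15 for TNFRSF10B, -0.098 for AGRN and 0.56 for PPL. Within the nutlin-3 samples it was 0.69, 0.65, 0.77, -0.21 and 0.66 in the same order. For PAXBP1, USP34 and PLCB4 the correlations with MDM4 were 0.92, 0.75 and 0.88 within vehicle, and 0.58, 0.22 and -0.21 within nutlin-3.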

How the data were processed

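RNA-seq of 20 NGP samples, 10 per condition as labelled, was used. Per the labels and methods, poly(A) RNA was sequenced as stranded pairs and the authors ran kallisto 0.42.4 on transcripts of GRCh38 (Ensembl release 85). The estimated counts deposited by the authors are read pairs assigned to each transcript, without normalization. The TPM values deposited by the authors are those counts scaled by effective length and library size. The effective lengths, in bases, were deposited too and used in an alternative. Of 198968 transcripts, 191106 were matched to GENCODE release 44, and those of protein_coding and lncRNA genes were kept.

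Counts were summed per gene or taken per transcript, rounded, and tested where each condition had a total of at least 1 count. edgeR 4.0.16 in R 4.3.3 was used with TMM normalization, quasi-likelihood tests with no term beside condition, and p-values adjusted by Benjamini-Hochberg (5% FDR). Standard errors were derived from the F statistic. Transcript usage was tested with diffSpliceDGE. Shares and the ratio were compared with two-sided permutation tests of 100000 resamples (scipy 1.17.1). Intervals from counting were not given because kallisto counts are estimates. Alternatives used DESeq2 1.42.0, limma 3.58.1, other filters and scales. Fits were tested on simulated data. Transcripts were named from a mean share of 1%, and regulators by call, size and up to 3 largest per role, with a few added. Members and lists were chosen with earlier results of these data known. Promoters are from RefSeq (GRCh38.p14), exon sequences from GENCODE. Protein sequences were not used here. A further marker of the cell type is not reported here.

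Replicate numbers are shared by 8 samples of each condition. Correlations of the deviations of same-numbered samples were between -0.0273 and 0.0741, so the numbers were not taken to pair samples.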

Additional observations from a re-analysis of the deposited data

Results flagged for a closer look

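Each of 66 groups of 10 samples (33 measures in each condition) was examined for a single sample set apart from the others, by the gap to its neighbour as a share of the range. The rule was meant to flag about 1 such sample in 20 groups by chance, and 7 were found. That rate need not hold for transcripts at 0 in most samples, such as MDM4-211 and MDM4-213 for vehicle. The number found is therefore not read as an excess.

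The nutlin-3 sample with the lowest log2 ratio of MDM2 to MDM4 TPM was replicate 4, at 6.00, with the next sample at 6.31. MDM2-206, the form without exon 3, was at 6.40 TPM in vehicle replicate 10, against at most 0.757 TPM in the other vehicle samples. The other 5 concerned MDM4 transcripts at low levels. MDM4-206 was at 5.08 TPM and MDM4-211 at 0.613 TPM in vehicle replicate 3, where the next samples were at 1.61 TPM and 0. MDM4-213 was at 0.447 TPM in vehicle replicate 11 and at 0 in the other 9. MDM4-205 was at 1.12 TPM in nutlin-3 replicate 6, with the next at 0.388 TPM. MDM4-207 was at 1.83 TPM in nutlin-3 replicate 11, with the next at 0.765 TPM.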

How the results depend on the processing

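The rise of MDM2 and of MDM4 was called with the same sign in all 9 alternatives, with log2 fold changes of 4.01 to 5.20 and 0.33 to 0.89. The ratio of MDM2 to MDM4, the MDM2 coding share and the MDM4 coding share kept their sign and call in every alternative tested for them. The alternative with length-matched transcripts only was tested for the P2 share alone. In it the MDM4 coding share was 70.0% ± 6.63 (SD) for vehicle and 62.4% ± 9.67 for nutlin-3. The MDM2 coding share was 9.19% and 47.9%, and the log2 ratio 4.55 and 6.29. Whether these keep their call was not tested. With the replicate number as a block, in the 16 samples that share one, the gene values were 4.50 for MDM2 and 0.34 for MDM4, and the block called 5 MDM2 transcripts in the usage test against 8, none of MDM4 against 2, 2263 transcripts of all genes in usage against 3769, and 18507 transcripts by level against 27977. Only 1 of the 16 samples correlated best with its own number, so the pairing is not given by the data. The same 16 samples without the block gave 1 MDM4 usage call. At an unadjusted p under 0.05 the block left 1 MDM4 transcript. The filterByExpr filter gave 0 MDM4 usage calls among 7 tested (edgeR, 3 at an unadjusted p under 0.05), with MDM4-205 and MDM4-211 not among them, and voom 2. For all genes voom gave 15631 usage calls. The 2 MDM4 usage calls of voom were MDM4-211 and MDM4-203. MDM4-203 had a usage value of 0.01 with edgeR, not called, and of -1.22 with voom, called downwards (adjusted p = 0.000233). Voom compares it with the mean of the other transcripts. The P2 share moved by 1.13 points with length-matched transcripts only (permutation p = 0.16), and the MDM4 exon 6 share by 2.42 points in estimated counts (permutation p = 0.204) instead of -12.8. The cause of these was not tested, apart from the transcripts left out in each. Of 228 further comparisons of single transcripts, 208 kept their side of the threshold, 8 of them with the other sign and no call in either fit. A further 15 lost their call, 4 gained one with the same sign, and 1, the usage of MDM4-203 with voom, gained one with the other sign. Levels of MDM4 transcripts under 1000 bases rest on few reads, and kallisto's assignment error cannot be had from these values.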
